A study of Homo sapiens with 60 samples.

Results

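The nuclear-encoded subunits of the mitochondrial respiratory chain and of ATP synthase were followed through osimertinib treatment and drug withdrawal in EGFR-mutant lung cancer cell lines. Members were chosen by gene symbol alone, from the prefixes that the nomenclature reserves for these subunits. The prefixes were NDUFA, NDUFB, NDUFC, NDUFS and NDUFV for complex I, SDHA to SDHD for complex II, UQCR for complex III, COX4 to COX8 for complex IV and ATP5 for complex V. As an exception, NDUFA4 and NDUFA4L2 were counted with complex IV. A mean estimated count of at least 10 over the 60 libraries was also required. Of the 19712 genes in the table, 89 symbols matched and 84 passed the minimum. These were 80 subunits (36 of complex I, 4 of complex II, 8 of complex III, 15 of complex IV and 17 of complex V) and 4 genes that share a prefix without being a standard subunit. The latter were ATP5IF1, which inhibits ATP synthase, UQCRHL, a copy of UQCRH, and the readthrough genes ATP5MF-PTCD1 and NDUFC2-KCTD14.

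Complexes I to IV sit in the inner mitochondrial membrane and pass electrons from NADH and succinate to oxygen. The proton gradient that complexes I, III and IV build is used by complex V, the ATP synthase, to make ATP. Complex II is also the succinate dehydrogenase of the tricarboxylic acid cycle. All subunits of complex II and most of the others are encoded in the nucleus and imported, whereas a few core subunits are encoded in mitochondrial DNA, so that assembly needs both genomes. EGFR signalling supports growth and the uptake and use of glucose in EGFR-mutant lung cancer. Cells that survive an EGFR inhibitor without a resistance mutation, called drug-tolerant persister (DTP) cells, are often studied for their dependence on mitochondrial respiration.

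RNA-seq was run on 4 human non-small cell lung cancer lines with EGFR mutations, PC9, HCC827, H1975 and HCC2935, each in 5 arms with 3 libraries per arm, which the labels call biological triplicates. The DMSO arm was treated with vehicle for 24 h and the acute arm with 500 nM osimertinib, an irreversible EGFR inhibitor, for 24 h, both on parental cells kept free of drug for the preceding 21 days. The DTP arm received 500 nM osimertinib for 21 days, and the short washout arm was released from that treatment for 24 h. The long washout differed between lines, at 7 days in PC9, 3 days in H1975, 4 days in HCC827 and 10 days in HCC2935, so long washout values are set side by side between lines as values at different times. The labels name no engineered allele in any group, each line stands for 1 tumour, and bulk libraries cannot tell fewer cells of a kind apart from less RNA per cell.

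In DMSO, the subunits covered a range of almost 3 orders of magnitude when compared per transcript length. Values scaled for transcript length and library size (TPM), averaged over the lines, were highest for the ATP synthase subunits ATP5MF (700.3) and ATP5F1B (697), the latter being the catalytic beta subunit. Next were the cytochrome c oxidase subunits COX4I1 (574), COX8A (545) and COX6A1 (448) and the complex III hinge protein UQCRH (404). The lowest subunits were NDUFA4L2 (0.90 TPM), COX6B1 (2.83 TPM), COX6B2 (3.12 TPM) and ATP5MC2 (6.17 TPM). COX6B1 and ATP5MC2 encode subunits of every cell's complex IV and V, and their values in this table stand far below those of their partners. The members' summed share of all TPM in the 3 DMSO libraries was 1.92%, 1.84% and 1.78% in PC9 and 1.61%, 1.65% and 1.55% in HCC827. It was 1.88%, 1.83% and 1.93% in H1975. In HCC2935 it was 1.38%, 1.37% and 1.34%, below every library of the other lines. Among the subunits found in every line, NDUFA4L2 differed most between lines, 6.94-fold, but at low levels from 0.28 TPM in H1975 to 1.94 TPM in HCC2935. ATP5MC3, a gene for the c subunit of the ATP synthase rotor ring, came next. It had 668 TPM in PC9, 261 in HCC827, 252 in H1975 and 102 in HCC2935, a 6.53-fold range. COX7B2, a paralog of COX7B best known from testis, was a PC9 gene here, with 59.8 TPM in PC9 DMSO cells, 0.0897 in HCC827, 0.022 in H1975 and 0 in HCC2935.

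Just inside the minimum mean estimated count were COX6B1 (11.1), UQCRHL (11.3), NDUFA4L2 (18.8) and NDUFC2-KCTD14 (31.0), and just outside were COX7A1 (6.38), ATP5MGL (1.76), COX8C (1.26), COX4I2 (0.0338) and COX6A2 (0). Of those outside, COX7A1 and COX6A2 are the heart and muscle forms of their subunits and COX4I2 is a lung-associated form of COX4. None of the 13 subunits encoded in mitochondrial DNA is among the genes analysed here. In the GENCODE release 29 annotation, 44 members overlap a gene on the opposite strand. Because the counting strand is not given in the sources used here, reads of such pairs (for example SDHD with TIMM8B and NDUFS1 with EEF1B2) may be mixed. For 32 the overlap is with a same-strand gene, and 45 have pseudogenes named after them, up to 17 for 1 gene, with which reads can be shared.

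Because most members moved in one direction, the stretch before the transcription start of 5 of them is shown, chosen to cover the 3 motif types found among named members and both a subunit that fell in every line (SDHB) and one that did not (SDHD). The sequences are the 250 bases upstream of each start in RefSeq on GRCh38.p14, 5′ to 3′ on the gene's strand, and capitals mark a match on either strand to the ETS core CCGGAAG, the NRF1 core CGCATGCG or the cyclic AMP response element TGACGTCA. They lie at chr17:48892537-48892786 on the plus strand for ATP5MC1, at chr11:63974370-63974619 on the plus strand for COX8A, at chr1:17054033-17054282 on the minus strand for SDHB, at chr2:206159445-206159694 on the minus strand for NDUFS1 and at chr11:112086623-112086872 on the plus strand for SDHD.
ATP5MC1: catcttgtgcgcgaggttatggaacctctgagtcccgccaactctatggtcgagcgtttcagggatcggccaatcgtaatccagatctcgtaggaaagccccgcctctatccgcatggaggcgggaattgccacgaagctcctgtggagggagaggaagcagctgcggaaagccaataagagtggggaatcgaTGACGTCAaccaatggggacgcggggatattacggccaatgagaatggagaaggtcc
COX8A: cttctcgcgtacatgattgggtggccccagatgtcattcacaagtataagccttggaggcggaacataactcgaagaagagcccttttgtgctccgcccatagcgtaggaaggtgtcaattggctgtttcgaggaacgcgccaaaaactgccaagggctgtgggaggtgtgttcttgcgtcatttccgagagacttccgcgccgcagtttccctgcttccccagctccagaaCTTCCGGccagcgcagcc
SDHB: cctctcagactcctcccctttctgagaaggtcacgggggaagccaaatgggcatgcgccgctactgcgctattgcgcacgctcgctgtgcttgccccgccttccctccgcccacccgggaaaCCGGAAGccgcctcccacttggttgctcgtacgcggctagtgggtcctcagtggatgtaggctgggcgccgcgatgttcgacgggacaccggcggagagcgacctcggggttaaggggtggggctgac
NDUFS1: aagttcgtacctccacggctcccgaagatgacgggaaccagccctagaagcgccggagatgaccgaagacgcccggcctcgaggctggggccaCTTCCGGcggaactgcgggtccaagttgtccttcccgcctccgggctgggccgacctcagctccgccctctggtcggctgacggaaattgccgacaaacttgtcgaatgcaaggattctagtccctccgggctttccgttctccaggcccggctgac
SDHD: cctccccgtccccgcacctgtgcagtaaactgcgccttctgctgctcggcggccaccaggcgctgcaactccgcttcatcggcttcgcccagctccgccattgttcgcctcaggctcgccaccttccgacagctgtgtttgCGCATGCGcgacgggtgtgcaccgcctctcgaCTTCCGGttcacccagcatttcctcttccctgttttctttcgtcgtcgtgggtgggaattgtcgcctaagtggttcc

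Of the 80 subunits, 67 had such an entry. The ETS core, which GABPA and other ETS factors bind, was found in 17 of 67 (25.4%) against 8.52% of 35116 promoters of the same length. Those 35116 were all entries of the promoter set, not limited to genes expressed in these cells, so they may differ from the members in other ways. The core of the NRF1 site was found in 9 (13.4%) against 1.73%, namely ATP5F1C, ATP5MC2, ATP5ME, ATP5PF, COX6A1, NDUFB4, NDUFS6, NDUFS7 and SDHD. A longer form, with G before and C after this core, was searched first and was found in 3 (4.48%) against 1.03%, namely ATP5F1C, NDUFB4 and SDHD. The core was put in its place after the counts of the longer form had been seen, so the members' share depends on the form chosen. The cyclic AMP response element was found in 4 (5.97%) against 1.65%, namely ATP5MC1, ATP5ME, NDUFA10 and NDUFB2, and the YY1 core AAGATGGCG in 1 (1.49%) against 0.652%, namely ATP5PF. None of the 4 motifs contains another, and 26 of the 67 held at least 1 of them, against 11.8% of all promoters (23 and 11.3% with the longer NRF1 form). A match describes the letters of the window and is not evidence of binding.

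Library totals were 34679067 to 47111694 estimated counts in PC9, 17715463 to 25065864 in HCC827, 38712807 to 49134084 in H1975 and 18642630 to 25580786 in HCC2935. Of the 60 libraries, 14 were closest to a library of another arm. PC9 long washout replicate 3 was closest to the PC9 DTP libraries while the other two were closest to DMSO. H1975 DTP replicate 2 was closest to short washout while the other two were closest to long washout. HCC827 DTP, short and long washout libraries were intermixed. The summed levels in CPM (counts scaled to library size) of 12 proliferation genes moved with the arms. In PC9 they were 2595 to 2881 in DMSO, 993 to 1010.0 in DTP, 1169 to 1314 in short washout and 1594 to 2543 in long washout. In HCC827 they were 3218 to 3470, 923 to 1609, 969 to 1996 and 1150.0 to 1375 in the same order, and in HCC2935 2357 to 2746, 514 to 991, 1153 to 1455 and 1367 to 2196. In H1975 they were 3485 to 3965, 796 to 1792, 1772 to 2480 and 919 to 1235, so that its long washout libraries lay under its short washout libraries, unlike in PC9. Their part in the members' changes was not tested. All 8 epithelial markers were present in each line, but their levels moved with the arms. In DTP against DMSO, 7 of 8 were lower and 0 higher in HCC827 (median -0.99), 6 and 0 in H1975 (-0.90), 5 and 1 in HCC2935 (-0.52) and 4 and 3 in PC9 (-0.06). After acute treatment, 6 of 8 were higher and 2 lower in PC9 (median 0.85), while in HCC2935 0 were higher and 4 lower (-0.55). The part of these markers in the members' changes was not tested. Of 10 markers of immune, endothelial, stromal and liver cells PTPRC, CD3E, COL3A1, PDGFRB, DCN and ALB were at 0 in at least 1 library. CD3E stayed at or under 0.217 CPM, DCN at or under 1.41, ALB at or under 0.828 and PTPRC at or under 4.73. The summed CPM of those 10, mostly CD68 and COL1A1, was 65.2 to 77.8 in PC9 DMSO and 56.1 to 66.7 in DTP, and 94.1 to 138 and 219 to 236 in HCC827. It was 159 to 225 and 171 to 309 in H1975, and 126 to 164 and 99.3 to 181 in HCC2935. In H1975 acute libraries the sum was 353 to 586. Over the lines, 6 of 9 testable markers of this list were higher and 1 was lower in DTP than in DMSO cells. In acute cells, 4 were higher and 0 lower, and their part in the results was not tested.

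The first question was what 24 h of EGFR inhibition did to the subunits. After acute treatment, more members were lower than higher in every line, and the ATP synthase showed the largest median shift. Averaged over the 4 lines, 16 of its 17 subunits fell and 0 rose, with a median log2 fold change of -0.46. Complex I had 23 of 36 subunits lower and 2 higher (median -0.27), complex II 3 of 4 lower (-0.18), complex III 6 of 8 lower and 1 higher (-0.27), and complex IV only 5 of 15 lower with 3 higher (-0.17). In all, 55 of 84 members fell and 7 rose, where 29.2% of 16583 genes fell and 35.2% rose, and the members' median was -0.31 against 0.10 over all genes.

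Taken line by line, 40 of 84 members were lower and 8 higher in acute PC9 cells, where 31.7% and 34.5% of all genes tested were lower and higher. In HCC827, 47 of 82 were lower and 0 higher against 20.2% and 18.7%. There, UQCRHL was the 1 member higher at an unadjusted edgeR p under 0.05, DESeq2 called 0 higher and limma on log2 TPM called 1. In H1975, 40 of 83 were lower and 3 higher against 23.8% and 27.8%. In HCC2935, 27 of 81 were lower and 6 higher against 22.2% and 24.9%; the total of 33 called became 20 without DMSO replicate 2 and 16 without acute replicate 3. The member medians were -0.24, -0.42, -0.27 and -0.17 in the same order, against 0.07, 0.02, 0.10 and 0.07 over all genes. In every line, 18 of the 81 members tested in all 4 were lower, against 11.5% of 13484 genes, and 0 were higher, against 8.15%. Of the 18, 9 belong to complex V, and the largest mean falls were those of ATP5MC1, ATP5MC3, NDUFS6, SDHB, ATP5F1B and UQCRFS1.

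**Figure D1:**
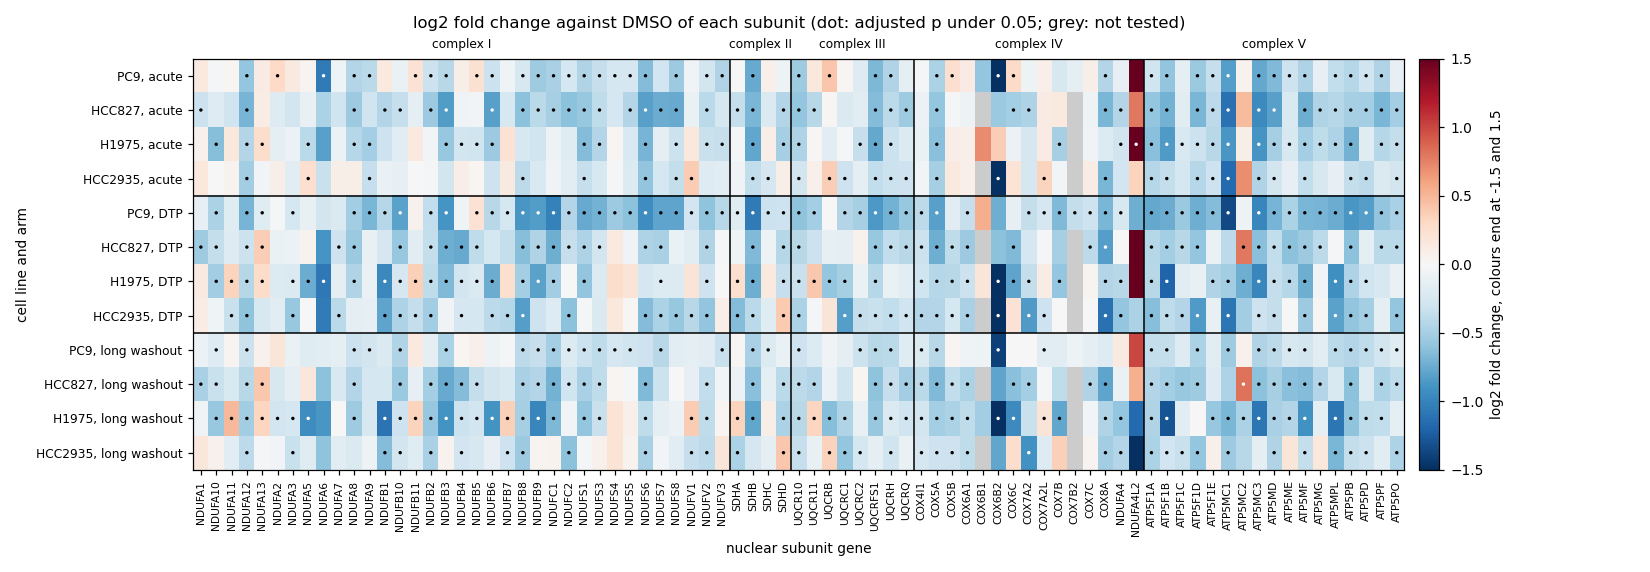
Map of the log2 fold change against DMSO of 79 subunits (columns, by complex) in acute, DTP and long washout cells of each line (rows), with a dot where the adjusted p is under 0.05 and grey where a gene was not tested. The DTP rows hold 63 lower calls in PC9, 44 in HCC827, 47 in H1975 and 47 in HCC2935, and columns such as SDHD, SDHA and UQCR11 differ in sign between lines.

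The second question was the state of the subunits in cells that had lived for 21 days in drug. In DTP cells, 72 of 84 members fell and 1 rose in the mean over 4 lines (30.5% and 34.5% of all genes), with a median of -0.40 against 0.08. By complex, 30 of 36 subunits of complex I fell (median -0.37), 4 of 4 of complex II (-0.18), 7 of 8 of complex III (-0.39), 12 of 15 of complex IV (-0.38) and 16 of 17 of complex V (-0.46), and no subunit rose. The 1 member that rose was the UQCRH copy UQCRHL, which is near the count minimum and shares sequence with its parent gene. In single lines, 66 members were lower and 2 higher in PC9 (33.5% and 35.7% of all genes), 45 and 2 in HCC827 (20.4% and 23%). The counts were 49 and 6 in H1975 (25.7% and 26%) and 48 and 1 in HCC2935 (25.8% and 27%). The member medians were -0.52, -0.38, -0.32 and -0.37, against 0.06, 0.03, 0.02 and 0.04 over all genes. A set of 20 members was lower in every line, against 8.42% of genes, and 0 were higher, against 5.47%. Members were lower in 3 lines in 26 cases, in 2 lines in 17, in 1 line in 16 and in no line in 5.

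The size of the PC9 difference depended on the scaling. The median over all genes in DTP against DMSO PC9 cells was 0.06 with TMM scaling, 0.20 with library size alone and 0.30 with limma on log2 TPM. The higher and lower calls among members were 2 and 66 with TMM and 7 and 47 with limma on TPM. Relative to the median of all genes, the members' median was -0.64 to -0.44 in PC9 over the scalings, -0.43 to -0.39 in HCC827, -0.35 to -0.34 in H1975 and -0.41 to -0.36 in HCC2935. Signs were checked for the named genes only, not for all members. Among them, limma on log2 TPM turned the sign of 3 small PC9 falls, those of NDUFA13, NDUFB4 and SDHA. The PC9 direction of these is therefore not given as a fall relative to DMSO on the TPM scale.

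On the TPM scale, the subunits' summed level was lower than in DMSO in all lines, both at 24 h and at 21 days. For all subunits together the 3 acute libraries held 86.8%, 79.6% and 86.7% of the DMSO mean in PC9, 78.9%, 74.9% and 82.3% in HCC827, 80%, 81.8% and 82.3% in H1975 and 89.9%, 83.8% and 81.9% in HCC2935. In DTP cells the values were 81.3%, 81.3% and 82.3%, 76.4%, 76.4% and 79.6%, 82.8%, 87.9% and 70.9% and 82.4%, 79.5% and 86.5%, with H1975 spread most. The ATP synthase sum was already at 72.4%, 68.6%, 66.7% and 75.3% of DMSO (means of PC9, HCC827, H1975 and HCC2935) in acute cells and at 70.7%, 74%, 66% and 79.1% in DTP cells. Complex IV took a different course, from 96.5%, 88.7%, 89.6% and 86.8% in acute cells to 90.3%, 73.1%, 78.6% and 78.6% in DTP cells.

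**Figure D2:**
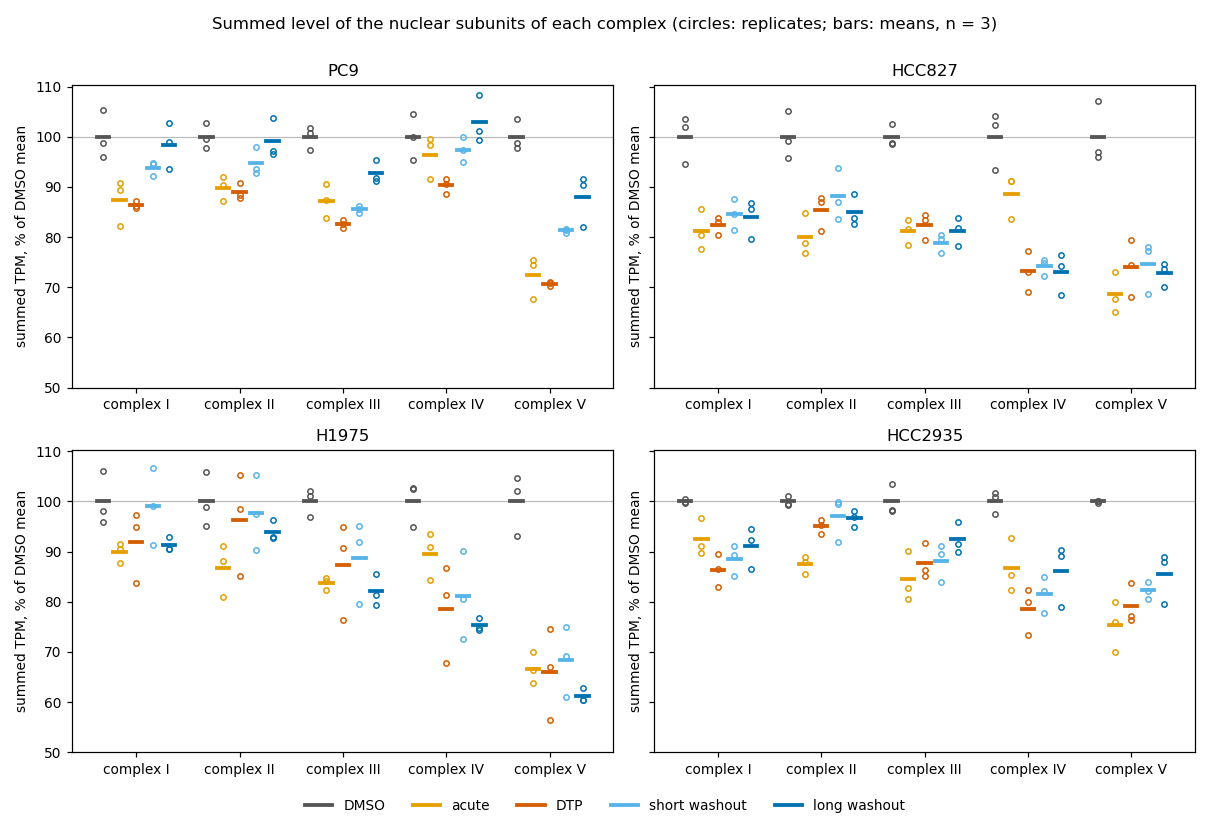
Summed TPM of the subunits of each complex, as a percentage of the DMSO mean of the same line, for the 5 arms, with 1 circle per library (n = 3), a bar at each mean and an axis that starts at 50%. The ATP synthase means lie between 66.7% and 75.3% after 24 h, whereas the complex IV means are lower in DTP than in acute cells in each line.

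The core subunits of complex I carry the flavin, the iron-sulphur clusters and the quinone site. NDUFS1, the largest of them, was at 129.6, 119 and 123 CPM in the 3 DMSO libraries of PC9, 87.2, 87.9 and 96.3 in acute and 74.8, 69.6 and 76 in DTP. In HCC2935 the values were 109, 118 and 102 in DMSO, 89.6, 76.2 and 92.1 in acute and 109, 105 and 107 in DTP. The acute libraries lay under all DMSO libraries in both lines, but the DTP libraries did so only in PC9, and in HCC2935 they overlapped with DMSO. The acute log2 fold changes were -0.46 in PC9, -0.57 in HCC827, -0.66 in H1975 and -0.35 in HCC2935 (adjusted p 0.000153 to 0.00797). The DTP values were -0.76 in PC9, -0.46 in HCC827, -0.59 in H1975 and -0.03 in HCC2935, with a difference among lines at an adjusted p of 0.000628. NDUFS6, an accessory subunit that holds a zinc ion, had one of the larger acute falls (-0.65 in PC9, -0.82 in HCC827, -0.70 in H1975 and -0.59 in HCC2935). NDUFB8 and NDUFB10 of the membrane arm fell in DTP cells of every line (-0.87 in PC9, -0.64 in HCC827, -0.51 in H1975 and -0.83 in HCC2935 for NDUFB8). The iron-sulphur subunits NDUFS7 and NDUFV2 also fell in DTP cells of every line, with mean changes over lines of -0.50 ± 0.0684 (SE) and -0.51 ± 0.0545 (SE). Here and below, the SE of a mean over lines reflects replicates within groups, not the spread among lines. NDUFV1, which binds NADH, did not share this course and is described with the line differences.

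Complex II has 4 subunits, and SDHB, its iron-sulphur protein, was the one lower in every line. In PC9 the DMSO libraries held 82.6, 76.9 and 86.4 CPM, the acute libraries 48.5, 48.2 and 48.4 and the DTP libraries 39.1, 40.8 and 38.2. In HCC827 the values were 62.4, 83 and 71.9, 39.5, 44.8 and 50.3 and 42.3, 47.9 and 46.9 in the same order. In both lines every treated library lay under every DMSO library. In H1975 they were 85.3, 81.7 and 84.8, 48.6, 49.6 and 48.7 and 47.8, 60.4 and 43. In HCC2935, which started lowest, they were 29.6, 30.6 and 33.4, 24.5, 26.8 and 21.1 and 24.4, 25.4 and 20.9. Again no treated library reached the DMSO range. The log2 fold changes were -0.76 in PC9, -0.69 in HCC827, -0.78 in H1975 and -0.37 in HCC2935 in acute cells (adjusted p 2.68e-06 to 0.0279). They were -1.06 in PC9, -0.66 in HCC827, -0.74 in H1975 and -0.40 in HCC2935 in DTP cells (adjusted p 2.93e-07 to 0.0155). The DTP changes differed among lines with an adjusted p of 0.00416. Of the membrane anchors, SDHC changed by -0.08 ± 0.0423 (SE) in acute and -0.12 ± 0.0423 (SE) in DTP cells in the mean over lines.

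In complex III, UQCRFS1, the Rieske iron-sulphur protein that hands electrons towards cytochrome c, was lower in both states in every line. Its PC9 libraries held 113, 105 and 109 CPM in DMSO, 67.6, 67.9 and 68.8 in acute and 62.6, 59.4 and 58.5 in DTP, with no overlap between DMSO and either treated arm. The log2 fold changes were -0.68 in PC9, -0.65 in HCC827, -0.76 in H1975 and -0.36 in HCC2935 after acute treatment (adjusted p 6.54e-06 to 0.0108). They were -0.86 in PC9, -0.57 in HCC827, -0.43 in H1975 and -0.33 in HCC2935 in DTP cells (adjusted p 1e-06 to 0.0162). The core proteins UQCRC1 and UQCRC2 changed by -0.49 ± 0.0501 and -0.24 ± 0.0416 (SE) in DTP cells in the mean over lines. UQCRB, a small subunit next to the quinone site, went the other way in acute PC9 cells, where libraries at 154, 155 and 149 CPM stood above the DMSO values of 115, 113 and 116. The log2 fold change was 0.41 ± 0.0582 SE, adjusted p = 2.04e-05.

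Complex IV, cytochrome c oxidase, had the fewest acute calls of the larger complexes, but 12 of its 15 subunits were lower in DTP cells in the mean over lines. COX8A, a small subunit of the nuclear shell, held 134, 141 and 120.1 CPM in DMSO, 90.3, 75.6 and 78.9 in acute and 66.5, 50.3 and 64.3 in DTP libraries of HCC2935. In H1975 the values were 113, 120.0 and 109.8, 104, 97.2 and 95.6 and 87.7, 96 and 68.6. DTP libraries were under all DMSO libraries in both lines, whereas the small acute difference in H1975 did not pass the test (-0.21 ± 0.118 SE, adjusted p = 0.15). In DTP cells the log2 fold changes of COX8A were -0.69 in PC9, -0.83 in HCC827, -0.44 in H1975 and -1.12 in HCC2935 (adjusted p 6.33e-06 to 0.00591). COX5A fell in both states in every line, with -0.55 ± 0.0469 in acute and -0.62 ± 0.047 in DTP cells on the log2 scale (mean over lines with SE), and COX4I1 fell in DTP cells of every line.

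COX6A1 and COX5B were the 2 members lower in DTP than in acute cells in every line, where 1.29% of genes were. COX6A1 libraries of HCC827 held 185, 172 and 162 CPM in DMSO, 177, 155 and 163 in acute and 122, 105 and 128 in DTP. In PC9 they held 191, 174 and 169, 194, 186 and 202 and 145, 136 and 139.8. Acute values overlapped with the DMSO range, and DTP values were under both. The DTP against acute log2 fold changes were -0.47 in PC9, -0.48 in HCC827, -0.40 in H1975 and -0.56 in HCC2935 for COX6A1 (adjusted p 0.000273 to 0.0145). Those of COX5B were -0.43 in PC9, -0.36 in HCC827, -0.52 in H1975 and -0.42 in HCC2935 (adjusted p 0.0014 to 0.014), and neither gene's change differed among lines by the test (adjusted p = 0.72 and 0.903). After acute treatment, COX6A1 had log2 fold changes of 0.12 in PC9, -0.07 in HCC827, 0.08 in H1975 and 0.07 in HCC2935, none past the threshold. COX5B rose in PC9 (0.25 ± 0.0841 SE, adjusted p = 0.0153).

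Of the ATP synthase members lower in acute cells of every line, the largest mean falls were those of ATP5MC1 and ATP5MC3, both genes for the rotor c subunit, and ATP5F1B of the catalytic head. ATP5MC1, which with ATP5MC2 and ATP5MC3 encodes the same mature c subunit, held 72.9, 68.7 and 71.3 CPM in DMSO, 42.5, 34.1 and 43.4 in acute and 28.3, 28.3 and 26.8 in DTP libraries of PC9. In HCC827 the values were 70.8, 78.7 and 76.8, 35.2, 32 and 37.2 and 40.5, 59.1 and 72.8. In PC9 all treated libraries were under the DMSO range, with DTP lowest, whereas in HCC827 the acute libraries were lowest and the DTP libraries spread up into the DMSO range. In H1975 the values were 84.6, 84.9 and 83.4, 50, 42.2 and 46.1 and 59.3, 68.8 and 48.6. In HCC2935 they were 66, 72.5 and 58.7, 29.4, 30.3 and 28.3 and 27.3, 27.9 and 38.1. The log2 fold changes were -0.83 in PC9, -1.11 in HCC827, -0.87 in H1975 and -1.16 in HCC2935 in acute cells (adjusted p 4.75e-06 to 0.00107). They were -1.35 in PC9, -0.39 in HCC827, -0.52 in H1975 and -1.08 in HCC2935 in DTP cells, where the HCC827 value did not pass (adjusted p = 0.16). The acute changes showed no difference among lines by the test (adjusted p = 0.479), but the DTP changes did (0.000897).

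ATP5F1B, the catalytic beta subunit and one of the most abundant members, held 1494, 1046 and 1563 CPM in DMSO, 655, 785 and 833 in acute and 600.2, 676 and 502 in DTP libraries of H1975. In HCC2935, which had the lowest DMSO level, the values were 326, 341 and 310.4, 263, 275 and 223 and 251, 249 and 249. No treated library reached the DMSO range in either line. In acute cells ATP5F1B changed by -0.59 in PC9, -0.71 in HCC827, -0.85 in H1975 and -0.36 in HCC2935 (adjusted p 1.96e-05 to 0.00217). In DTP cells the changes were -0.74 in PC9, -0.51 in HCC827, -1.21 in H1975 and -0.38 in HCC2935 (adjusted p 2.51e-06 to 0.00155). The c subunit gene ATP5MC3 had DTP changes of -0.98 in PC9, -0.62 in HCC827, -0.98 in H1975 and -0.32 in HCC2935 (adjusted p 1.49e-06 to 0.0137). The alpha subunit ATP5F1A fell by every line's test in both states (mean -0.49 ± 0.0445 and -0.58 ± 0.0446, SE). ATP5IF1, the inhibitor that blocks ATP hydrolysis by the synthase, was also lower in DTP cells of every line (-0.43 in PC9, -0.82 in HCC827, -0.33 in H1975 and -0.37 in HCC2935). The scarce c subunit gene ATP5MC2 had a mixed course, higher in DTP cells of HCC827 (0.79) and lower in H1975 (-0.74), from counts that are low for its family.

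**Figure D3:**
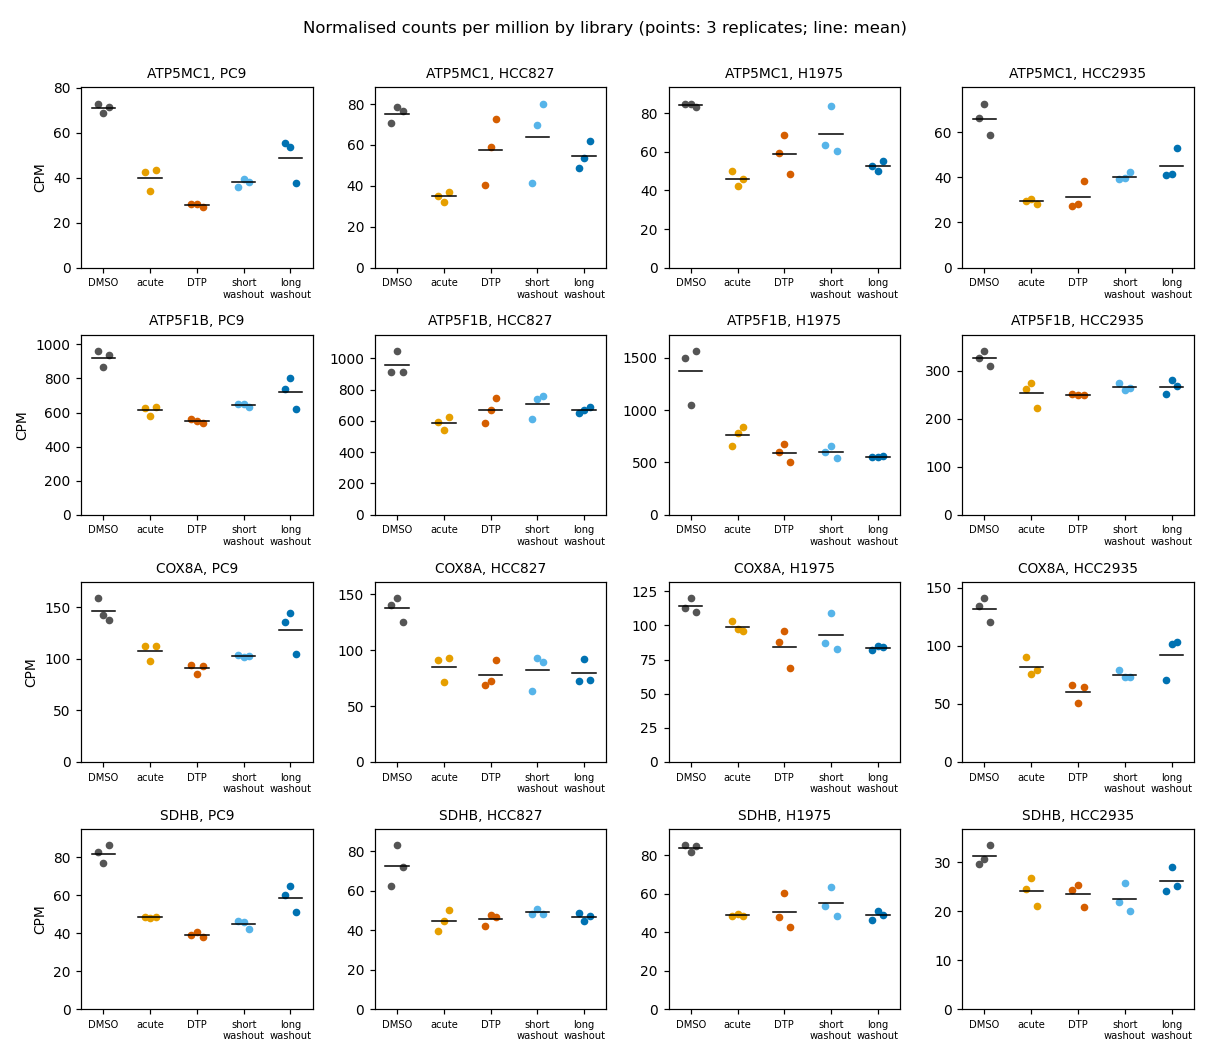
Level in CPM of ATP5MC1, ATP5F1B, COX8A and SDHB in every library (points, n = 3 per group) with a line at the mean of each arm, by cell line. DMSO libraries stand above the DTP libraries in each panel except ATP5MC1 in HCC827, where DTP libraries reach 72.8 CPM against a DMSO range from 70.8 to 78.7 CPM.

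The third question was whether the lower level deepened between 24 h and 21 days. Averaged over lines, 34 of 84 members were lower and 3 higher in DTP than in acute cells (22.7% and 24.6% of all genes), with a median of -0.11 against 0.02. Complex IV contributed 9 of its 15 subunits (median -0.28) and complex I 17 of 36, against 5 of 17 in complex V and 0 of 4 in complex II. The lines parted here, and 47 members were lower and 1 higher in PC9 (17.8% and 16.1%), and 27 and 2 in HCC2935 (21.9% and 22.8%). The counts were 8 and 10 in HCC827 (11.5% and 18%) and 12 and 13 in H1975 (18.9% and 18.3%). The difference among lines was past the threshold for 58 of 84 members, against 54.3% of all genes. The HCC827 total of 18 fell to 6, 9 and 11 without acute replicates 1, 2 and 3 and to 7 without DTP replicate 3, and the H1975 total of 25 became 14 and 12 without acute replicates 2 and 3. On the TPM scale with limma, the lower and higher calls were 14 and 7 in PC9 and 18 and 15 in HCC2935, so the extent of the deepening in these lines depends on the scaling.

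The washouts asked whether the members came back once drug was removed. After 24 h without drug, 3 members (NDUFB9, ATP5PD and ATP5MPL, all higher) were called in PC9, where 3.87% of genes were higher and 2.05% lower. The count was 0 to 1 when any 1 of the 6 libraries was left out and 1 with the replicate block. DESeq2 called 10, and 32 members had an unadjusted p under 0.05. In HCC827, edgeR called 0 members and 0% of genes, 0 members had an unadjusted p under 0.05, and DESeq2 called 0. In H1975, edgeR called 0 members (0.0585% of genes), 3 had an unadjusted p under 0.05, and DESeq2 called 1. In HCC2935, edgeR called 0 members (2.32% of genes higher and 0.816% lower), 5 had an unadjusted p under 0.05, and DESeq2 called 0. In the mean over lines, 3 members were higher and 1 lower (7.56% and 5.03%), and 0 members differed among lines (0.0121% of genes).

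After the long washout, PC9 stood apart. In PC9, 51 of 84 members rose from their DTP level and 0 fell (20.4% and 16.8% of genes), with a median of 0.30 against -0.02. The count was 67 without the replicate nearest to DTP and 36 without replicate 2. The ATP synthase had the largest share of the complexes, with 15 of 17 subunits higher. ATP5MC1 held 28.3, 28.3 and 26.8 CPM in DTP, 36.1, 39.6 and 38.1 in short washout and 55.7, 53.6 and 37.8 in long washout libraries of PC9, against 72.9, 68.7 and 71.3 in DMSO. The washout libraries lay between the DTP and DMSO ranges, the long washout replicate 3 among the short washout values. The long washout change from DTP was 0.82 ± 0.127 SE, adjusted p = 0.001. SDHB took the same course, with 60.4, 64.8 and 51 CPM after long washout and a change of 0.58 ± 0.0861 SE, adjusted p = 0.000916. Compared with DMSO, 40 members were still lower in PC9 and 0 higher (21.5% and 23.4%). The lower and higher calls were 28 and 1 without long washout replicate 3, and 20 and 5 with library size scaling. With limma on log2 TPM they were 20 and 10, so the extent of the remaining difference depends on the scaling. The summed TPM of all subunits in the 3 PC9 long washout libraries was 99.4%, 95.7% and 90.8% of the DMSO mean.

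In the other lines, few or no members passed the test between DTP and long washout. In HCC827, edgeR called 0 members between long washout and DTP (0% of genes; 1 at an unadjusted p under 0.05, 0 by DESeq2). By the same test H1975 had 0 (0.0065% of genes; 1 at an unadjusted p under 0.05, 0 by DESeq2). HCC2935 had 3 higher and 0 lower (6.82% and 4.94%), which became 8 without long washout replicate 1 and 1 or 0 without either of the others. COX8A, one of the 3, went from 66.5, 50.3 and 64.3 to 70.4, 102 and 103 CPM (0.61 ± 0.139 SE, adjusted p = 0.0102). Against DMSO, 45 members were lower and 2 higher in HCC827 (20% and 21.9%). The counts were 52 and 9 in H1975 (26% and 27.3%) and 35 and 2 in HCC2935 (20.8% and 22.5%; 20 and 2 without long washout replicate 1). In each of the 4 lines, 12 members were lower than in DMSO after long washout, against 3.89% of genes, and 0 higher, against 3.34%, led by ATP5F1B, ATP5MF, ATP5PB and NDUFB8. In the mean over lines, 13 members rose from DTP and 0 fell (9.55% and 6.09%). This count was 8 without the low-count filter, 5 with limma on log2 TPM, 1 to 10 without 1 replicate number in every group, and 33 without PC9 long washout replicate 3 and H1975 DTP replicate 2. In the same mean, 61 were lower than in DMSO and 2 higher (28% and 29.5%). The long washout change from DTP differed among lines for 25 members, against 15.2% of genes, with the washout lasting 7, 4, 3 and 10 days in PC9, HCC827, H1975 and HCC2935. Without replicate 1, 2 or 3 of every group that count was 1, 0 and 36.

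Some members moved in opposite directions in different lines. Their share was under that of all genes in each comparison against DMSO, and above it in DTP against acute. In DTP against DMSO, 9 members were called in opposite directions in at least 2 lines and differed among lines by the test of the difference, against 15.7% of 16583 genes. In all, 64 members differed among lines in size or direction, against 63.9%, and 37 to 54 did so without 1 replicate number in every group. Opposite calls numbered 3 in acute against DMSO (6.44% of genes), 14 in DTP against acute (12.7%) and 9 in long washout against DMSO (13.6%), and 16 (41.4%), 58 (54.3%) and 52 (57.1%) members differed among lines there. Without 1 replicate number in every group, these last counts were 7 to 18, 35 to 49 and 31 to 36. SDHD, a membrane anchor of complex II with a TIMM8B gene on the other strand, held 51, 50.8 and 52.3 CPM in DMSO and 71, 66.5 and 65.6 in DTP libraries of HCC2935. In H1975 it held 107, 108 and 112 and 86.1, 97.8 and 73.1, and in HCC827 104, 111 and 104 and 73.2, 85 and 79. The DTP libraries were above the DMSO range in HCC2935 and under it in the other two. The log2 fold changes were -0.31 in PC9, -0.43 in HCC827, -0.35 in H1975 and 0.40 in HCC2935 (adjusted p 0.000654 to 0.00744), and the difference among lines had an adjusted p of 1.73e-07. SDHA, the flavoprotein of the same complex, had the reverse signs in HCC2935 and H1975 only. In PC9 and HCC827 its log2 fold changes by edgeR were -0.18 and -0.06, negative like those of SDHD. SDHA held 191, 202 and 180.0 CPM in DMSO and 122, 126 and 119 in DTP libraries of HCC2935, against 259, 314 and 276 and 335, 347 and 326 in H1975. It fell in HCC2935 (-0.65 ± 0.0776 SE, adjusted p = 4.61e-06) and rose in H1975 (0.25 ± 0.0954 SE, adjusted p = 0.0412), with a difference among lines at 2.1e-06. Within HCC2935, then, 2 subunits of 1 complex were called in opposite directions.

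In complex I, NDUFV1 in HCC2935 rose with acute drug and was low in DTP cells, from 139.8, 146 and 138 CPM in DMSO to 174, 167 and 209 and then 105, 109 and 102. The 3 arms did not overlap, with 0.38 ± 0.0862 SE, adjusted p = 0.00201 for acute and -0.42 ± 0.0865 SE, adjusted p = 0.000746 for DTP against DMSO. UQCR11 of complex III was higher in DTP cells of H1975 (0.41 ± 0.0851 SE, adjusted p = 0.00105) and lower in PC9 (-0.51 ± 0.0882 SE, adjusted p = 0.000133).

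**Figure D4:**
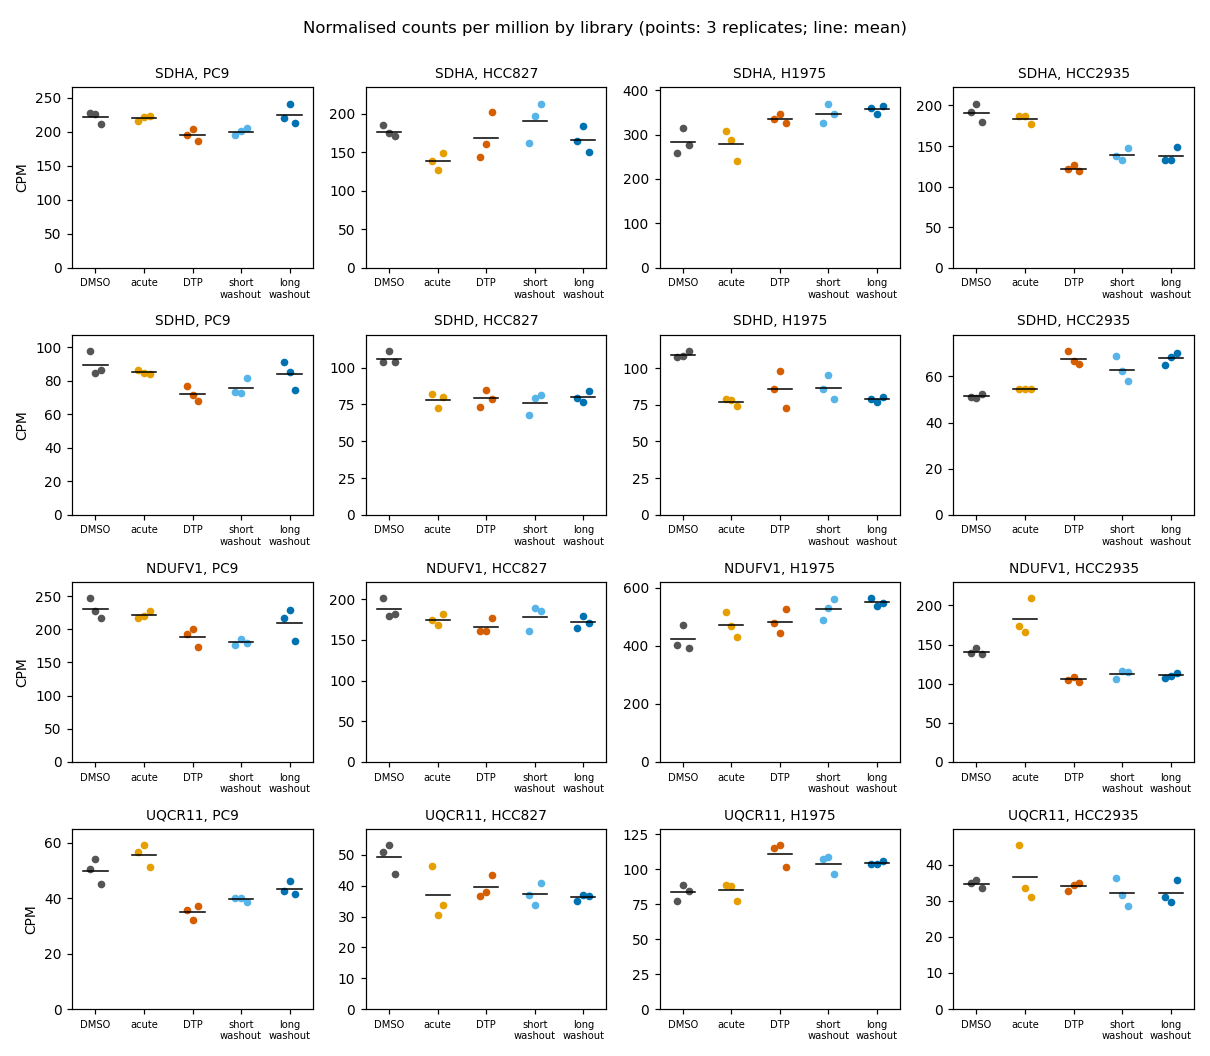
Level in CPM of SDHA, SDHD, NDUFV1 and UQCR11 in every library (points, n = 3 per group) with a line at the mean of each arm, by cell line. SDHD in HCC2935 DTP libraries stands above its DMSO libraries (65.6 to 71.0 against 50.8 to 52.3 CPM), while SDHA in the same libraries stands below (119 to 126 against 180 to 202 CPM).

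Of the paralogs of restricted use, COX7B2 was measured in PC9 in all arms, with 21.3, 20.3 and 15.7 CPM in DMSO and 15.7, 12.9 and 16.2 in DTP (-0.36 ± 0.125 SE, adjusted p = 0.0203). No library of the other lines was above 0.092 CPM. COX6B2, the testis form of COX6B, was lower in H1975 DTP cells, from 11, 2.89 and 9.61 CPM in DMSO and 5.31, 13.3 and 11.9 in acute to 0.815, 0.991 and 0.595 in DTP (-3.28 ± 0.558 SE, adjusted p = 0.000214). The DMSO values are spread, but none of the 3 DTP libraries reached them. COX6B2 was also called lower in DTP cells of HCC2935 (-2.08 ± 0.665 SE). Against DMSO it was called lower in 2 of the 4 lines and higher in 0 in each state, but the lines were not the same. They were PC9 and HCC2935 in acute cells, H1975 and HCC2935 in DTP cells, and PC9 and H1975 after long washout. NDUFA4L2, the hypoxia-inducible relative of NDUFA4, was near the count floor in most libraries and rose in acute H1975 cells, from 0.231, 0.0231 and 0.186 to 2.41, 1.74 and 0.843 CPM (3.47 ± 0.877 SE, adjusted p = 0.00422), a ratio of low counts. Among members compared with DMSO in any line, COX6B1 and NDUFC2-KCTD14 were called in no line and state.

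Other genes of mitochondria and of fuel use were read from gene lists alongside. In DTP against DMSO, averaged over lines, 75 of 78 mitochondrial ribosome genes fell and 0 rose (median -0.55), as did 23 of 27 import genes with 1 higher (-0.60). Lower were also 37 of 49 assembly factors with 2 higher (-0.27), 18 of 26 genes of the tricarboxylic acid cycle and pyruvate oxidation with 2 higher (-0.36) and 13 of 16 further chain proteins with 2 higher (-0.40). Glycolysis genes had 16 of 18 lower and 0 higher, with a median of -0.85 beside -0.40 for the respiratory members, where 30.5% and 34.5% of all genes were lower and higher. After acute treatment the counts lower and higher were 68 and 2 for the mitochondrial ribosome (median -0.48), 25 and 1 for import (-0.69), and 33 and 3 for assembly factors (-0.31). They were 15 and 3 for the cycle (-0.25), 9 and 3 for further chain proteins (-0.28) and 16 and 0 for glycolysis (-0.78), against 29.2% and 35.2%. The treatment itself was visible in 14 of 14 ERK target genes, which fell in acute cells (median -2.12), and in 12 of 12 proliferation genes (-2.04). In DTP cells 12 of 14 (-1.40) and 12 of 12 (-1.59) were lower.

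The rule for naming single genes took those with the largest changes in each list, so they are not typical of their lists. Further chain proteins, which include CYCS and PDSS1, had medians of -0.28 in acute and -0.40 in DTP cells. Assembly factors had -0.31 and -0.27. Among single genes, CYCS, which encodes cytochrome c, the carrier between complexes III and IV, changed by -1.71 ± 0.0811 (SE) in acute and -1.05 ± 0.0796 (SE) in DTP cells. In PC9 it held 319.6, 289 and 329.7 CPM in DMSO, 74.7, 54.8 and 72.1 in acute and 99.4, 88.7 and 88.7 in DTP, with no overlap. PDSS1, needed for the tail of ubiquinone, the carrier towards complex III, changed by -2.02 ± 0.136 and -1.49 ± 0.133 (SE), and SDHAF3, an assembly factor for SDHB, by -1.26 ± 0.0923 and -1.43 ± 0.0929 (SE). Of 19 regulators of mitochondrial biogenesis, 12 fell and 1 rose in DTP cells (median -0.33), and 14 fell and 0 rose in acute cells (-0.42). TFAM, the packaging and transcription factor of mitochondrial DNA, fell (-1.10 ± 0.0637 and -1.04 ± 0.0636, SE), whereas the 1 called higher in DTP cells in the mean over lines was PPARGC1A, the coactivator PGC-1 alpha. PPARGC1A libraries held 2.66, 2.97 and 6.68 CPM in DMSO and 7.51, 18.5 and 13.1 in DTP of HCC2935, and 0, 0.0462 and 0 and 1.31, 1.13 and 1.21 in H1975. PC9 held 0, 0 and 0 in DMSO and 0.111, 0.0473 and 0.0211 in DTP, and HCC827 0, 0.0474 and 0 and 0.051, 0.247 and 0.235, so HCC2935 alone had a DMSO level from which a fold can be read, with a log2 fold change of 1.67. PDK4, a kinase that holds back pyruvate dehydrogenase, was higher in both states in the mean over lines (1.67 ± 0.182 and 1.43 ± 0.182, SE). In DTP cells of H1975 it went the other way, at 3.96, 2.21 and 1.98 CPM against 5.36, 4.83 and 5.91 in DMSO. HK2, the first enzyme of glycolysis in many tumours, fell in DTP cells (-1.70 ± 0.0833, SE).

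**Figure D5:**
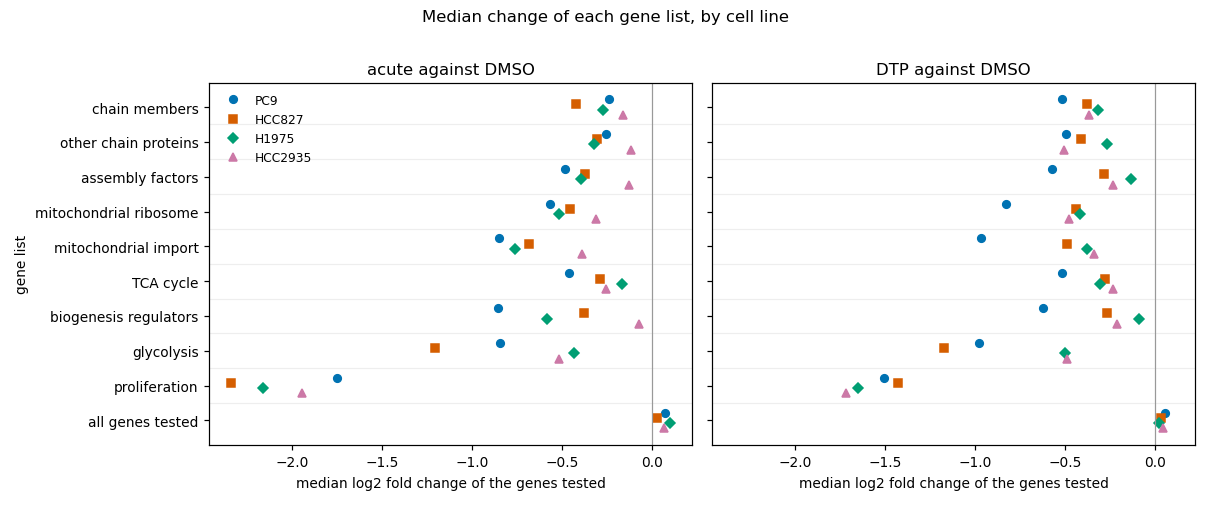
Median log2 fold change of the chain members, of other gene lists and of all genes tested (rows), in acute and DTP against DMSO (panels), with 1 marker per line. The chain members lie at -0.52 to -0.32 in DTP cells where all genes lie at 0.02 to 0.06, and glycolysis and proliferation lie further to the left in each line.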

How the data were processed

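RNA-seq libraries of 4 cell lines in 5 arms were analysed (60 libraries, 3 per group, labelled biological triplicates). The authors deposited 1 table of estimated counts per gene and 1 table of log2 TPM with 0.01 added; the submitters' processing notes name HISAT2 2.1.0, Salmon 0.8.2 and hg38, and the counting strand is not given in the sources used here. Estimated counts were rounded to whole numbers. Genes passing filterByExpr were tested per line (15 libraries sharing 1 estimate of spread) with edgeR 4.0.16 in R 4.3.3 (TMM scaling, quasi-likelihood F-test, two-sided, Benjamini-Hochberg adjustment over all genes tested, threshold 0.05), and in 1 fit of 60 libraries for the mean of the 4 lines and the difference among them. CPM values are TMM-scaled, and TPM sums use the deposited log2 TPM. SE values were derived from the fold change and F of the edgeR fits and reflect the spread of replicates within groups. For a mean over lines, they do not include the variation among lines.

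The members and gene lists were chosen with earlier results of these data known. For the other gene lists, up to 3 called genes per list and comparison were taken, with the largest absolute mean change in acute or DTP against DMSO. Named chain genes were the core subunits, paralogs of restricted use and those beside the count minimum. To these were added the largest calls per comparison and those called alike in every line (up to 6). Members named outside this rule (COX6C, NDUFA5, NDUFB7, NDUFB11 and COX7A2L among the opposite calls, those matched by a promoter motif, and those named for their DMSO level or beside a count of 5 or fewer) were chosen after their values were seen. The values of 1 member are not reported here, though it is in the counts. Alternatives were RLE and library-size scaling, no low-count filter, DESeq2 1.42.0, limma 3.58.1 on log2 TPM and log2(TPM + 1), own 6 libraries, a replicate block and leaving out replicates; the fit without PC9 long washout replicate 3 and H1975 DTP replicate 2 was added after seeing the data. Replicate numbers pair samples by correlation in 3 of 40 arm pairs (every r over 0.1): HCC827 and H1975 DTP with short washout, and HCC2935 DMSO with acute. In simulated DTP data, 8% to 32% of genes changed by 0.5 log2 units and 65% to 88% of those changed by 1 were recovered in single lines, 76% and 98% in the mean of 4 lines, and 6% and 56% for the difference among lines; false calls were 0.935% to 8.18% of calls. The NRF1 motif was shortened to its core after the counts of a longer form were known. Promoter sequences come from RefSeq on GRCh38.p14 and gene overlaps from GENCODE release 29.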

Additional observations from a re-analysis of the deposited data

Results flagged for a closer look

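The changes of many members, as of many genes outside this set, differed between the cell lines by the edgeR test of the difference among lines. This held for 16 of 84 members in acute against DMSO, 64 in DTP against DMSO, 58 in DTP against acute, 25 in long washout against DTP and 52 in long washout against DMSO, beside 41.4%, 63.9%, 54.3%, 15.2% and 57.1% of all genes. The members' share was under that of all genes in acute against DMSO. In the other comparisons listed it was above, by least in long washout against DMSO. Without 1 replicate number in every group, the counts were 7 to 18, 37 to 54, 35 to 49, 0 to 36 and 31 to 36. Washout times also differed between lines, which cannot be told apart from the line in the last 2 counts.

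In each comparison against DMSO, a smaller share of members than of all genes was called in opposite directions with a difference among lines. Members called higher in 1 line and lower in another are given with the adjusted p of the difference. In acute cells these were COX6C, a small subunit of complex IV (0.000804), with 0.28 in PC9, -0.51 in HCC827, -0.09 in H1975 and 0.20 in HCC2935 on the log2 scale. NDUFA5 (0.00339) had 0.04 in PC9, -0.11 in HCC827, -0.40 in H1975 and 0.26 in HCC2935, and NDUFB5 (0.0117) had 0.23 in PC9, -0.04 in HCC827, -0.30 in H1975 and 0.03 in HCC2935.

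In DTP cells, the smallest of these p values were in complex II, for SDHD (1.73e-07) and SDHA (2.1e-06). In complex I, the accessory subunit NDUFA13 (1.56e-05) had -0.18 in PC9, 0.36 in HCC827, 0.28 in H1975 and -0.25 in HCC2935, NDUFB11 (5.07e-05) had 0.07 in PC9, -0.16 in HCC827, 0.36 in H1975 and -0.36 in HCC2935, and NDUFA11 (0.000984) had -0.18 in PC9, -0.20 in HCC827, 0.34 in H1975 and -0.33 in HCC2935. NDUFB5 (0.000818) was higher in PC9 alone, and UQCR11 (1.55e-05) was higher in H1975 and lower in PC9. ATP5MC2, the c subunit gene of low count (0.00848), was higher in HCC827 and lower in H1975.

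After long washout, the difference among lines had adjusted p values of 1.13e-07 for SDHD, 1.13e-05 for NDUFV1, 1.94e-05 for SDHA, 2.63e-05 for UQCRB, 0.000689 for UQCR11, 0.00133 for COX7A2L, 0.00239 for NDUFB7 and 0.0282 for ATP5MC2. H1975 was the line with the higher call for NDUFV1, SDHA, UQCR11, NDUFB7 and COX7A2L, HCC2935 for SDHD and UQCRB, and HCC827 for ATP5MC2.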

How the results depend on the processing

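The number of members called per comparison kept within 1.5 times its value under most alternatives; the exceptions follow, and their cause was not tested unless the setting has fewer samples. With limma on log2 TPM and log2(TPM + 1), PC9 had 21 and 25 members called in DTP against acute (48 by edgeR) and 6 and 10 in short washout against DTP (3 by edgeR); DESeq2 called 10 there, and 1 in H1975 (0 by edgeR). With its own 6 libraries alone, PC9 had 16 in short washout against DTP, 31 in long washout against DTP (51) and 19 in long washout against DMSO (40), where library-size scaling gave 25; H1975 had 11 in DTP against acute (25) and HCC2935 0 in long washout against DTP (3). In the mean of 4 lines, short washout against DTP (4) gave 9 with limma on log2 TPM and 7 without the PC9 and H1975 libraries named above, and long washout against DTP (13) gave 8 without the low-count filter, 5 with limma and 33 without these 2 libraries. Without its 3 members of highest TPM, complex II is left with SDHB alone, at 66.0% of DMSO in DTP cells (mean of 4 lines). That value is the level of a single gene and not a sum for the complex. Treated in the same way, the DTP sum of complex III was 91.1% of DMSO. With all subunits, the DTP sum by line was 85.3% to 96.3% of DMSO for complex II and 82.4% to 87.7% for complex III.

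With the replicate number as a block, PC9 short washout against DTP had 1 member called in place of 3; in the arm pairs that the numbers do pair, the blocked counts were 0, 0 and 29 (33 unblocked), and the block moved no other count by over 1.5 times.

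Direction was checked for the named genes only. Among them, limma on log2 TPM and on log2(TPM + 1) alike reversed NDUFA13 (0.072 in both), NDUFB4 (0.18) and SDHA (0.069 and 0.068) in DTP against DMSO of PC9. In DTP against acute, both reversed ATP5MD (0.23), NDUFB5 (0.26), NDUFV1 (0.036) and SDHA (0.10) in PC9, and ATP5F1B (0.17) in HCC2935.

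Leaving out 1 library at a time gave 0 to 1 members in PC9 short washout, 6 to 20 in HCC827 and 12 to 29 in H1975 DTP against acute, 16 to 33 in HCC2935 acute, 0 to 1 in HCC2935 short washout, and 0 to 8 and 22 to 36 in HCC2935 long washout against DTP and DMSO. Leaving out 1 replicate number in every group gave, in the mean of 4 lines, 0 to 3 in short and 1 to 10 in long washout against DTP. For the difference among lines it gave 7 to 18 in acute, 37 to 54 in DTP, 35 to 49 in DTP against acute, 0 to 36 in long washout against DTP and 31 to 36 in long washout against DMSO. COX6B1, UQCRHL and NDUFA4L2 have low counts (means of 11.1, 11.3 and 18.8); the part of depth in this was not tested.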

Other observations

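Genes of mitochondrial import were also compared between acute and DTP cells. Averaged over the lines, 15 of 27 import genes were higher and 2 lower in DTP than in acute cells (median 0.21), where 24.6% and 22.7% of all genes were, while 3 of the 84 respiratory members were higher and 34 lower (-0.11); the difference between the lists was not tested. Of the assembly factors, 9 of 49 were higher and 6 lower (0.02), and of the mitochondrial ribosome genes 6 of 78 were higher and 28 lower (-0.07). Import genes higher numbered 2 in PC9, 5 in HCC827, 16 in H1975 and 10 in HCC2935. Of all genes tested, 16.1%, 18%, 18.3% and 22.8% were higher in the same order. ERK targets were higher in 13 of 14 cases (0.93) and proliferation genes in 8 of 12 (0.53) in the same comparison. After the long washout, 27 of 78 mitochondrial ribosome genes, 12 of 27 import genes and 11 of 18 glycolysis genes were higher than in DTP cells and 0 lower in the mean over lines, where 9.55% and 6.09% of all genes were. By line, these lists had 59, 19 and 13 higher calls in PC9 and 6, 1 and 8 in HCC2935, and 0 in HCC827 and H1975. Of all genes tested, 20.4% were higher in PC9, 6.82% in HCC2935 and 0% in HCC827 and H1975, so the 0 counts there are not particular to these lists.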
